A study of Mus musculus with 44 samples.

Results

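The neighbouring genes *Gdf3*, *Dppa3* and *Nanog* on mouse chromosome 6 were followed by ATAC-seq, which reads open chromatin from where the Tn5 transposase cuts. All peaks inside a window of 170 kb that holds these 3 genes were taken (mm10, chr6:122590000-122760000), which gave 55 of the 152393 peaks of the series. Of the 55 peaks, 32 were intergenic, 13 lay in introns and 10 overlapped an exon. By the nearest protein-coding transcript start, 3 belonged to *Apobec1*, 5 to *Gdf3*, 12 to *Dppa3*, 22 to *Nanog* and 13 to *Slc2a3*. Each peak is named below by its nearest gene and by the distance in bp of its centre from that start, in the direction of transcription. *Slc2a3* has several annotated starts, and each of its peaks is placed from the nearest.

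*Nanog* encodes a homeodomain factor of the pluripotency network, and *Gdf3* encodes a ligand of the TGF-β family that signals with Nodal. *Dppa3* (Stella) encodes a protein that acts on DNA methylation. The genes lie side by side in mammals and are active together in pluripotent cells. Oct4 (encoded by *Pou5f1*) and Sox2 bind a shared DNA word, the OCT-SOX motif, at many enhancers of this network. *Slc2a3* encodes a glucose transporter, and *Apobec1* encodes an RNA-editing cytidine deaminase.

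The 44 libraries fell into 12 groups. In the *Pou5f1* line the fathers were +/mKO2 and the mothers flox/flox with *Zp3-Cre*, and in the *Sox2* line the fathers were +/EGFP and the mothers again flox/flox with *Zp3-Cre*, so that the knockouts (KO) lacked the maternal and the zygotic gene, while the controls (Ctrl) lacked the maternal gene only. *Zp3-Cre* is active in the oocyte, and the strain label was B6C3F1 throughout. The *Pou5f1* line was sampled as morulae at E2.75 and late morulae at E3.25 (3 Ctrl and 3 KO libraries each), and as inner cell masses (ICMs) at E3.75 (early) and E4.5 (late), with 4 Ctrl and 4 KO libraries each. The *Sox2* line was sampled as early and late ICMs in the same numbers. Every ICM group, Ctrl included, was cultured from E2.5 with 1 µM PD0325901, an inhibitor of MEK, and then freed of trophectoderm by immunosurgery. Each library held a pool of 20 to 40 embryos or ICMs. Nothing states that replicates came from separate litters, so p-values measure the spread between pools. Pooled tissue does not tell fewer cells with an open site from less opening in each cell.

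The values are rlog values, counts of Tn5 insertions that were scaled and moderated on a log2 scale. A difference of 1 is a 2-fold difference on this moderated scale. The counts behind the rlog values were not analysed here, so the depth is unknown. Replicates correlated with Pearson's r of 0.762 to 0.908 over all peaks, and library medians lay between 2.35 and 2.63. The mean over libraries of the 55 peaks ran from 1.20 to 6.83 with a median of 3.31, and 46 of the 55 lay above the median of all peaks, 2.44. Differences were tested with limma over all 152393 peaks, and a peak was called where the Benjamini-Hochberg adjusted p was under 0.05.

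The sequences of 6 sites on which the results below turn are shown first: the peaks with the largest decreases in *Pou5f1*-KO, the listed distal enhancer of *Nanog* and its neighbour, the *Nanog* promoter up to the gene start, and a distal peak with an exact OCT word. They are plus-strand reads of the mm10 reference (GRCm38.p6), and the *Nanog* promoter is a RefSeq entry of the same build. Capitals mark OCT-SOX words (at most 3 mismatches in 15 letters) in *Gdf3* +1470, *Dppa3* −1749 and the *Nanog* promoter, TEAD words (ACATTCC, either strand) in *Gdf3* +1470 and *Nanog* −4825, and the OCT word (ATGCAAAT) in *Slc2a3* −8920. *Nanog* −4444 held none of the words searched.
Gdf3 +1470, intron of *Gdf3*, chr6:122608518-122608717: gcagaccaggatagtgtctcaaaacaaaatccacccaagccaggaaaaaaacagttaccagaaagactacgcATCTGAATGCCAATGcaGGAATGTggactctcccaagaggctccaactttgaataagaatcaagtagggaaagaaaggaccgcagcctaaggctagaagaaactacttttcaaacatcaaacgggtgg
Dppa3 −1749, intergenic, chr6:122624562-122624761: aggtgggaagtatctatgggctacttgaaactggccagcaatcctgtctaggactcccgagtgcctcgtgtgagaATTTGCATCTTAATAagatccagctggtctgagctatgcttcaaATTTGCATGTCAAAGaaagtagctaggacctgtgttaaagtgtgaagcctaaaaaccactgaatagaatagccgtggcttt
Nanog −4825, intergenic, chr6:122702565-122702764: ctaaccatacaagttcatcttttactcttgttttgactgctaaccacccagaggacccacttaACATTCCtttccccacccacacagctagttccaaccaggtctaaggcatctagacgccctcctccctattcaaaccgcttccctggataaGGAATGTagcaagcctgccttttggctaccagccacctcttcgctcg
Nanog −4444, intergenic, chr6:122702946-122703145: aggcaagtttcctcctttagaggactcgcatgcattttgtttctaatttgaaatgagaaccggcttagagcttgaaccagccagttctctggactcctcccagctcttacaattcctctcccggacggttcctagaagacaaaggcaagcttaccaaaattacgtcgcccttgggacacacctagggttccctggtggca
Nanog promoter, chr6:122707239-122707488: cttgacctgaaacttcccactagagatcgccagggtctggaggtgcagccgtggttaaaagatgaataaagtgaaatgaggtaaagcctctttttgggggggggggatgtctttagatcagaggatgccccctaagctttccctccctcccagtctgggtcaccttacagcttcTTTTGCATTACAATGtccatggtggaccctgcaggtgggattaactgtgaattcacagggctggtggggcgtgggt
Slc2a3 −8920, intron of *Slc2a3*, chr6:122751741-122751940: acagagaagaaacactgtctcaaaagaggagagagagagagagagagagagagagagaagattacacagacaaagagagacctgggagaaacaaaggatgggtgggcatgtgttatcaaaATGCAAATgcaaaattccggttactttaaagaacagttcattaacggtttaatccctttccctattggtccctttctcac

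The OCT-SOX word was found in 4 of the 55 peaks and in 5.03% of all peaks. *Dppa3* −1749 held the closest match, with 1 mismatch on the minus strand at chr6:122624681-122624695, and another with 3 mismatches at chr6:122624637-122624651. *Gdf3* +1470, *Gdf3* −7627 and *Dppa3* +36601 each matched with 3 mismatches. The 200 bp of the *Nanog* promoter peak (chr6:122707420-122707619) held no such word within their bounds, but a match with 1 mismatch stood at chr6:122707413-122707427 and began 7 bp before the peak. This wider search of the *Nanog* promoter was added after the values were seen. Among 32851 RefSeq promoter entries, 5.08% held a match with at most 3 mismatches and 0.067% one with at most 1.

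The remaining words were also counted. The KLF word (GGGNGTGG) was in 13 of 55 peaks against 20.6% of all peaks, the TEAD word in 4 against 7.53%, the GATA word (AGATAAG) in 3 against 7.71%, and the ESRRB word (CAAGGTCA) in 2 against 5.95%. The OCT word alone was in 2 peaks, *Dppa3* −1749 and *Slc2a3* −8920, against 2.39% of all peaks, and the SOX word (CATTGTT) was in 0 of 55 against 3.04%. The OCT word overlaps the OCT-SOX word by construction. Matches describe letters in these windows and do not show binding. The median GC content was 50.0% in the window and over all peaks.

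Without Oct4, accessibility was lower at peaks of *Gdf3*, *Dppa3* and *Nanog*, most of them in the ICM stages. In *Pou5f1*-KO, 1 of 55 peaks was called lower in morulae (0.185% of all peaks were), 2 in late morulae (0.539%), 8 in early ICMs (5.43%) and 16 in late ICMs (10.1%). Called increases numbered 0, 0, 1 and 1, against 0.0518% and 0.108% of all peaks in the morula stages and 8.19% in late ICMs. In early ICMs 8.18% of all peaks were called in either direction, 4196 of them higher. The median difference over the 55 peaks was −0.01, −0.14, −0.25 and −0.43 in stage order, while that over all peaks stayed between −0.04 and −0.01. In both ICM stages the share of the 55 peaks called lower was above that of all peaks. The share called higher was below that of all peaks in late ICMs and near it in early ICMs.

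Without Sox2, fewer of these peaks were called. In *Sox2*-KO, 1 of 55 was called lower in early ICMs (1.91% of all peaks) and 2 in late ICMs (4.88%), while 0 and 4 were called higher (0.238% and 2.71%). Over the 6 comparisons of KO with Ctrl, 20 of the 55 peaks were called at least once, against 24.5% of all peaks. The comparisons in the early ICM and in the late ICM used separate embryos in the *Pou5f1* and *Sox2* lines.

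**Figure D1:**
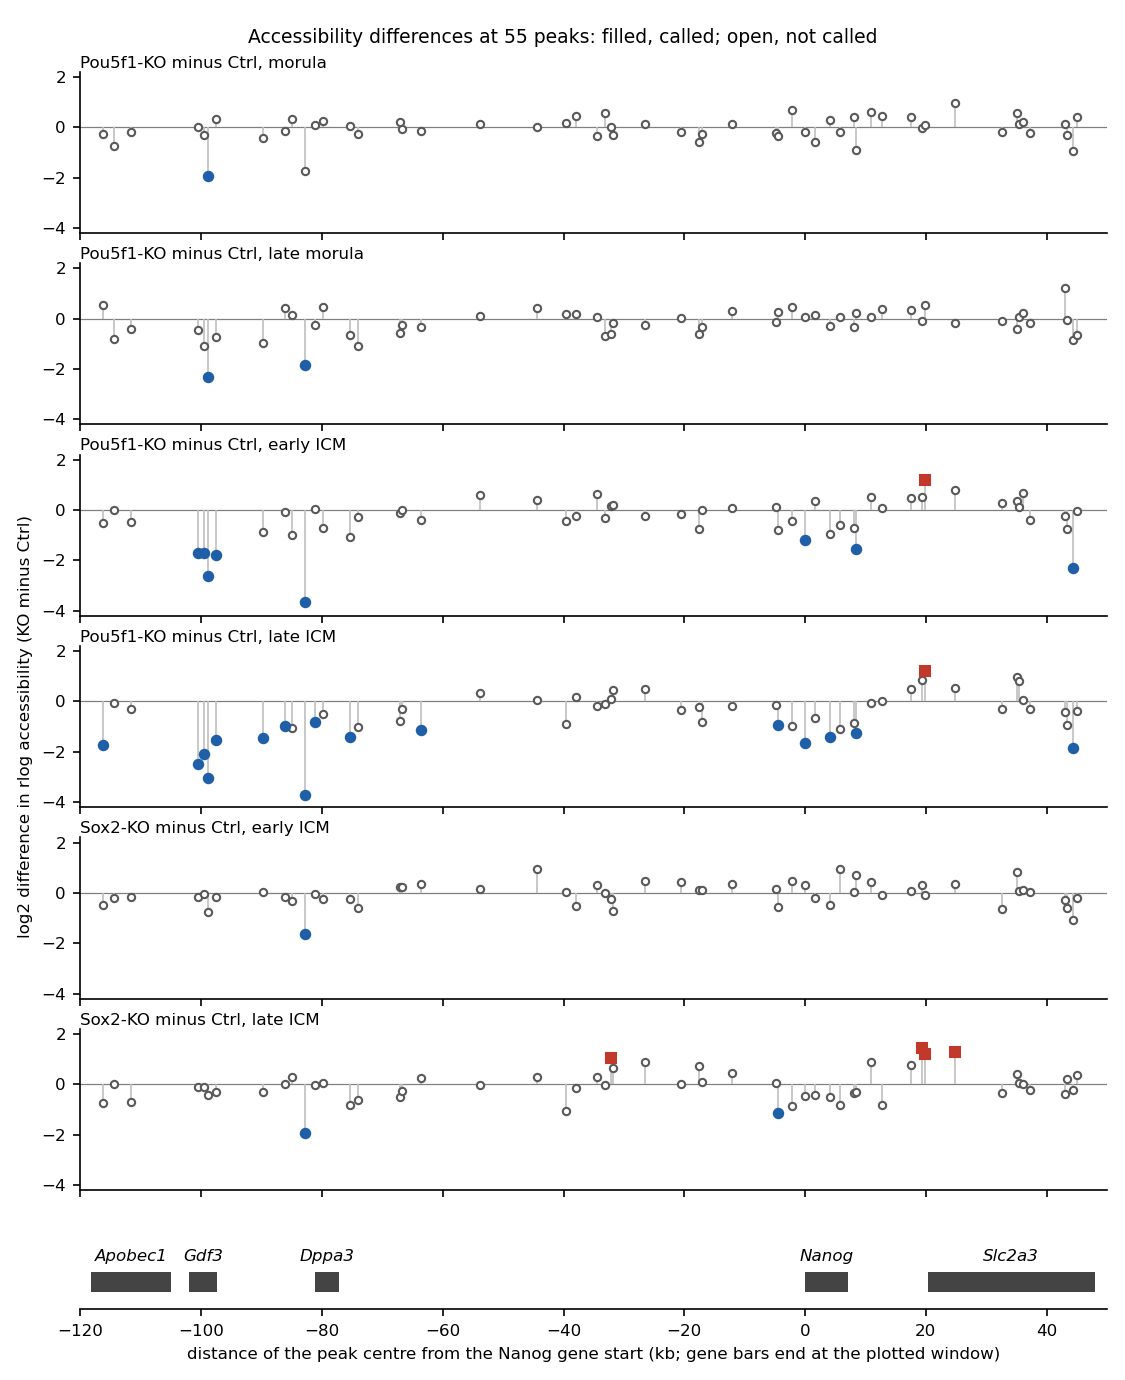
Log2 difference in rlog accessibility (KO minus Ctrl, vertical axis) at the 55 peaks against the distance in kb of the peak centre from the *Nanog* gene start, with 1 panel for each of the 6 comparisons and gene bodies at the bottom; filled blue circles are called lower, filled red squares called higher and open circles not called. In *Pou5f1*-KO late ICMs, 16 peaks were called lower, among them all 5 assigned to *Gdf3*, whereas in *Sox2*-KO late ICMs 2 were.

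*Gdf3* was lower at every one of its peaks in *Pou5f1*-KO late ICMs. Of its 5 peaks, 1 was called lower in morulae (0.185% of all peaks), 1 in late morulae (0.539%), 4 in early ICMs (5.43%) and 5 in late ICMs (10.1%). The median difference in late ICMs was −2.08. In *Sox2*-KO, limma called 0 of the 5 peaks lower in early ICMs (1.91% of all peaks) and in late ICMs (4.88%), and 0 higher (0.238% and 2.71%). A count of 0 of 5 is near these shares. The unadjusted p was under 0.05 at 1 and 0 of the 5 peaks, against 17993 and 29057 of all 152393. Their median differences in *Sox2*-KO were −0.17 and −0.29.

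*Gdf3* +1470, in an intron of *Gdf3*, was the peak of this gene called lower in morulae and late morulae. In Ctrl morulae it read 4.49, 3.84 and 3.97, and in *Pou5f1*-KO morulae 3.65, 1.81 and 1.06. The groups did not overlap, but the KO library with 3.65 was close to the controls. The difference was −1.93 ± 0.43 (SE, n = 3 per group, adjusted p = 0.0189). This call was lost without KO replicate 2 (adjusted p = 0.147), KO replicate 3 (0.378) or Ctrl replicate 1 (0.130), without a trend in the variance (0.0616), and when only the morula libraries were fitted (0.221).

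At the later stages the same *Gdf3* +1470 peak separated the groups more widely. In late morulae Ctrl read 2.58, 3.98 and 3.98 against 1.29, 0.72 and 1.56 in *Pou5f1*-KO, a difference of −2.32 ± 0.43 (adjusted p = 0.000471). In early ICMs the values were 5.03, 4.98, 4.97 and 5.32 in Ctrl and 2.41, 2.99, 2.16 and 2.35 in KO (−2.60 ± 0.37, n = 4 per group, adjusted p = 6.2e-08). In late ICMs they were 5.30, 4.91, 5.07 and 5.52 in Ctrl and 3.02, 1.20, 1.86 and 2.52 in KO (−3.05 ± 0.37, adjusted p = 1.39e-10). No KO library reached a Ctrl library of its own stage, and these 3 calls held under each alternative that was run.

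The *Gdf3* +1470 peak was not called in *Sox2*-KO. In *Sox2*-line late ICMs Ctrl read 5.66, 5.47, 5.85 and 5.65 and KO 4.87, 5.71, 5.09 and 5.22, so that the groups overlapped. The difference was −0.43 ± 0.37 with a 95% interval from −1.17 to 0.30 (adjusted p = 0.600), and in early ICMs it was −0.75 ± 0.37 (adjusted p = 0.404). The *Pou5f1*-KO effect minus the *Sox2*-KO effect at this peak in late ICMs was −2.62 ± 0.52 on the log2 scale (adjusted p = 0.00229). In early ICMs the same difference of effects was −1.85 ± 0.52 (adjusted p = 0.0650).

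At the *Gdf3* promoter peak (+127, chr6:122609861-122610060, over the UTR and coding sequence next to the start) the 12 group means fell into a high and a low set. The 6 highest group means, 4.22 to 4.73, were those of the Ctrl ICMs of both lines and of the *Sox2*-KO ICMs. The 6 lowest, 2.32 to 3.05, were the morula and late morula groups of either genotype and the *Pou5f1*-KO ICMs. The gap between the sets, 1.16, exceeded the SDs of the groups on either side (0.348 and 0.310), and no other neighbours in the order differed by more than both of their SDs. Within the low set the SD reached 1.23, in *Pou5f1*-KO morulae. Single libraries of the sets overlapped, with *Pou5f1*-KO morula replicate 1 at 4.13 and *Sox2*-KO late ICM replicate 3 at 3.73.

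Per library, the *Gdf3* promoter peak read 4.36, 4.70, 4.03 and 3.87 in Ctrl late ICMs of the *Pou5f1* line against 3.18, 2.58, 2.42 and 2.68 in KO. Each KO library was below each Ctrl library, and the difference was −1.53 ± 0.39 (adjusted p = 0.00247). In early ICMs it was −1.77 ± 0.39 (adjusted p = 0.000802). In *Sox2*-KO the peak differed by −0.17 ± 0.39 and −0.29 ± 0.39 in early and late ICMs, with 95% intervals from −0.95 to 0.61 and from −1.06 to 0.49.

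Of the other *Gdf3* peaks beyond the promoter, 2 were called lower in both ICM stages of *Pou5f1*-KO and *Gdf3* −7627 in late ICMs alone. *Gdf3* +3164, over a coding exon (chr6:122606824-122607023), was lower in *Pou5f1*-KO by −1.70 ± 0.44 in early ICMs and −2.48 ± 0.44 in late ICMs (adjusted p = 0.00565 and 8.27e-06), and *Gdf3* +2170, in an intron (chr6:122607818-122608017), by −1.70 ± 0.44 and −2.08 ± 0.44 (adjusted p = 0.00489 and 0.000161). The early ICM call at *Gdf3* +3164 was lost without Ctrl replicate 2 (adjusted p = 0.0519). *Gdf3* −7627, the intergenic peak between *Gdf3* and *Dppa3* with an OCT-SOX word (chr6:122617615-122617814), was lower by −1.44 ± 0.39 in late ICMs (adjusted p = 0.00388), while in early ICMs its difference was −0.89 ± 0.39 (adjusted p = 0.158). At *Gdf3* +3164 the effect of *Pou5f1*-KO differed from that of *Sox2*-KO in late ICMs by −2.37 ± 0.63 (adjusted p = 0.0361).

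At *Dppa3* the upstream peak was lower in the ICMs of both knockouts, and the promoter peak was called lower only in *Pou5f1*-KO late ICMs, by less. *Dppa3* −1749 had the largest decrease among the 55 peaks in both knockouts, in early and in late ICMs. In Ctrl late ICMs of the *Pou5f1* line it read 5.35, 5.73, 5.70 and 5.74, and in KO 1.52, 1.49, 1.52 and 3.15. The difference was −3.71 ± 0.39 (adjusted p = 7.08e-13). KO replicate 4 was higher than the other 3 KO libraries and still below each control.

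In early ICMs *Dppa3* −1749 read 5.35, 5.19, 4.82 and 4.88 in Ctrl against 1.47, 1.64, 1.05 and 1.42 in *Pou5f1*-KO, a difference of −3.66 ± 0.39 (adjusted p = 3.01e-12). In late morulae Ctrl gave 3.64, 3.55 and 3.60 and KO 1.16, 2.01 and 2.07 (−1.85 ± 0.45, adjusted p = 0.0210). The late morula call was lost without any one of KO replicates 1 and 2 and Ctrl replicates 1, 2 and 3 (adjusted p from 0.0521 to 0.186). In morulae the values were 4.20, 4.13 and 4.41 in Ctrl and 3.71, 1.66 and 2.18 in KO, without a call (−1.73 ± 0.45, adjusted p = 0.0666). With the replicate block this difference was called (adjusted p = 0.0146). The KO morula replicate 1 held the highest KO value here, as it did at *Gdf3* +1470 and *Slc2a3* −8920.

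*Dppa3* −1749 also fell in *Sox2*-KO. In late ICMs Ctrl read 5.04, 5.47, 5.29 and 5.26 and KO 3.22, 4.21, 2.83 and 3.16, without overlap, a difference of −1.91 ± 0.39 (adjusted p = 0.000212). In early ICMs the values were 4.67, 5.49, 3.92 and 5.09 in Ctrl and 2.35, 3.92, 2.48 and 3.87 in KO. The highest KO library there lay at the level of the lowest Ctrl library, and the difference was −1.64 ± 0.39 (adjusted p = 0.00576). That call was lost without KO replicate 1 (adjusted p = 0.0714), KO replicate 3 (0.0628) or Ctrl replicate 2 (0.0646).

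The size of the change at *Dppa3* −1749 was not called different between the knockouts. The *Pou5f1*-KO effect minus the *Sox2*-KO effect was −2.03 ± 0.55 in early ICMs (95% interval −3.12 to −0.93, adjusted p = 0.0533) and −1.80 ± 0.55 in late ICMs (−2.90 to −0.71, adjusted p = 0.0898). The *Pou5f1*-KO effect itself was larger in early ICMs than in late morulae by −1.82 ± 0.60, also without a call (adjusted p = 0.177).

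The *Dppa3* promoter peak (−53, chr6:122626258-122626457, over the transcript start) was high in all groups. Of the 12 group means, 11 lay between 4.94 and 5.32, with neighbours closer than their SDs, and the lowest, 4.51 ± 0.45 (SD, n = 4), was that of *Pou5f1*-KO late ICMs, 0.437 below its neighbour, a gap under its own SD. There the KO libraries read 5.03, 3.98, 4.69 and 4.32 against 5.17, 5.51, 5.13 and 5.46 in Ctrl. The difference was −0.81 ± 0.27 (adjusted p = 0.0233), and the call was lost without KO replicate 2 or 4 or Ctrl replicate 2 or 4 (adjusted p from 0.0648 to 0.122). In *Pou5f1*-KO early ICMs it was 0.02 ± 0.27, and in *Sox2*-KO it was −0.03 ± 0.27 in early and −0.01 ± 0.27 in late ICMs.

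Of the 12 peaks assigned to *Dppa3*, 5 were called lower in *Pou5f1*-KO late ICMs (against 10.1% of all peaks), with a median of −0.90. Besides the 2 above these were *Dppa3* −4978 (−0.99 ± 0.30, adjusted p = 0.0129), *Dppa3* +5657 (−1.43 ± 0.44, adjusted p = 0.0136) and *Dppa3* +17546 (−1.14 ± 0.40, adjusted p = 0.0313). *Dppa3* −4978 lost its call without KO replicate 1 or Ctrl replicate 4 (adjusted p up to 0.134), *Dppa3* +5657 without KO replicate 3 or Ctrl replicate 4 (up to 0.100), and *Dppa3* +17546 without KO replicate 2 or 3 or Ctrl replicate 2 or 4 (up to 0.0943). *Dppa3* +36601, the last of the peaks with an OCT-SOX word, differed by 0.06 ± 0.45 in *Pou5f1*-KO late ICMs and was called in no comparison of KO with Ctrl.

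**Figure D2:**
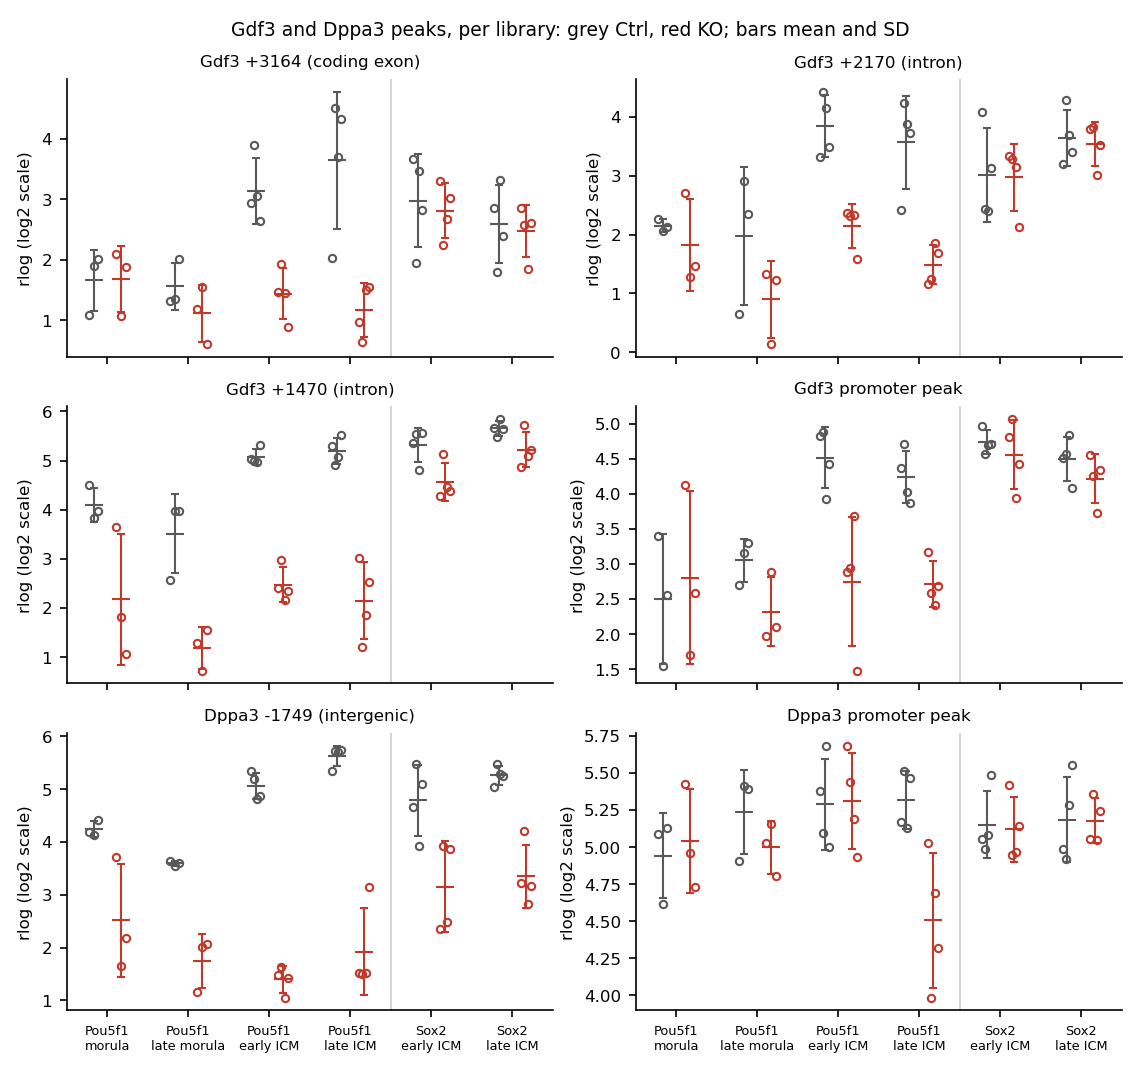
The rlog value (log2 scale, vertical axis) per library at 4 *Gdf3* and 2 *Dppa3* peaks for each line and stage (horizontal axis), with Ctrl in grey and KO in red; points are libraries and bars show mean and SD. At *Gdf3* +1470 and *Dppa3* −1749 the *Pou5f1*-KO ICM libraries lay between 1.05 and 3.15, below all Ctrl libraries of the same stages, whereas the *Dppa3* promoter peak stayed between 3.98 and 5.68.

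At *Nanog* the highest peak of the window was called in no comparison of KO with Ctrl, while the promoter peak and 3 others were called lower in *Pou5f1*-KO late ICMs. *Nanog* −4825, which overlaps the distal enhancer in the study's enhancer list, had a mean rlog of 6.83, higher than 99.9% of all peaks. Its 12 group means ran from 6.15 to 7.27. In *Pou5f1*-line late ICMs it read 7.03, 6.75, 6.89 and 7.07 in Ctrl and 6.71, 6.56, 7.0 and 6.85 in KO, and the groups overlapped. The differences were 0.14 ± 0.17 and −0.15 ± 0.17 in *Pou5f1*-KO early and late ICMs, and 0.14 ± 0.17 and 0.07 ± 0.17 in *Sox2*-KO. The 95% intervals of these 4 differences lay within −0.50 and 0.48.

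*Nanog* −4444, the next peak toward the gene, was called lower in late ICMs of both knockouts. In the *Sox2* line it read 6.56, 6.19, 5.86 and 6.43 in Ctrl and 5.02, 4.91, 5.27 and 5.22 in KO, without overlap (−1.15 ± 0.29, adjusted p = 0.00337). In the *Pou5f1* line it read 6.04, 4.97, 5.49 and 5.81 in Ctrl and 5.63, 3.92, 4.55 and 4.47 in KO, with overlap (−0.94 ± 0.29, adjusted p = 0.0127). The latter call was lost without KO replicate 2 (adjusted p = 0.108) or Ctrl replicate 1 (0.0670), and without a trend in the variance (0.0533). In *Pou5f1*-KO early ICMs, where replicate numbers paired the libraries, the difference of −0.78 ± 0.29 was not called (adjusted p = 0.0741) but passed with the replicate block (adjusted p = 0.0156). The effects of the 2 knockouts differed by 0.22 ± 0.41 in late ICMs (95% interval −0.59 to 1.02).

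The *Nanog* promoter peak (+30), which the study lists as the proximal enhancer, was lower without Oct4 in both ICM stages. In late ICMs Ctrl read 5.23, 4.99, 5.43 and 5.10 and *Pou5f1*-KO 3.69, 3.55, 3.45 and 3.43, without overlap (−1.66 ± 0.33, adjusted p = 5.26e-05). In early ICMs Ctrl read 5.08, 4.80, 5.64 and 5.01 and KO 3.27, 5.08, 3.40 and 3.94. KO replicate 2 lay among the controls there, and the difference was −1.21 ± 0.33 (adjusted p = 0.00806). The early call was lost without KO replicate 1 (adjusted p = 0.0622), KO replicate 3 (0.0558) or Ctrl replicate 3 (0.0529).

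In *Sox2*-KO the *Nanog* promoter peak differed by 0.32 ± 0.33 in early ICMs (95% interval −0.33 to 0.97) and by −0.47 ± 0.33 in late ICMs (−1.12 to 0.17). The effects of the knockouts differed by −1.53 ± 0.46 and −1.18 ± 0.46 in early and late ICMs, without a call (adjusted p = 0.0907 and 0.226). In the order of the 12 group means, from 3.53 to 5.19, no neighbours differed by more than both of their SDs. The Ctrl early ICMs of the *Sox2* line had 4.09 ± 0.64 (SD, n = 4) and those of the *Pou5f1* line 5.13 ± 0.36, a difference between lines of −1.04 ± 0.33 (adjusted p = 0.0965).

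Of the 22 peaks assigned to *Nanog*, 2 were called lower in *Pou5f1*-KO early ICMs and 4 in late ICMs (against 5.43% and 10.1% of all peaks), with a median of −0.28 in late ICMs. *Nanog* +4198, over a coding exon, was lower by −1.43 ± 0.39 (adjusted p = 0.00453) in late ICMs. *Nanog* +8476, which lies beyond the end of the gene, was lower by −1.56 ± 0.42 in early ICMs (adjusted p = 0.00778) and −1.23 ± 0.42 in late ICMs (adjusted p = 0.0265). Its calls were lost without Ctrl replicate 3 in early ICMs (adjusted p = 0.0543) and without KO replicate 3 or Ctrl replicate 1 or 3 in late ICMs (up to 0.0581). *Nanog* +8476 was the peak at which the knockouts were called different in early ICMs, by −2.29 ± 0.59 (adjusted p = 0.0357), where it read 3.49, 3.34, 4.43 and 3.68 in Ctrl and 1.72, 1.82, 3.12 and 2.05 in *Pou5f1*-KO, against 1.98, 2.18, 2.67 and 3.47 in Ctrl and 4.11, 3.53, 2.35 and 3.22 in *Sox2*-KO. This call did not hold when only the libraries compared were fitted (adjusted p = 0.102).

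**Figure D3:**
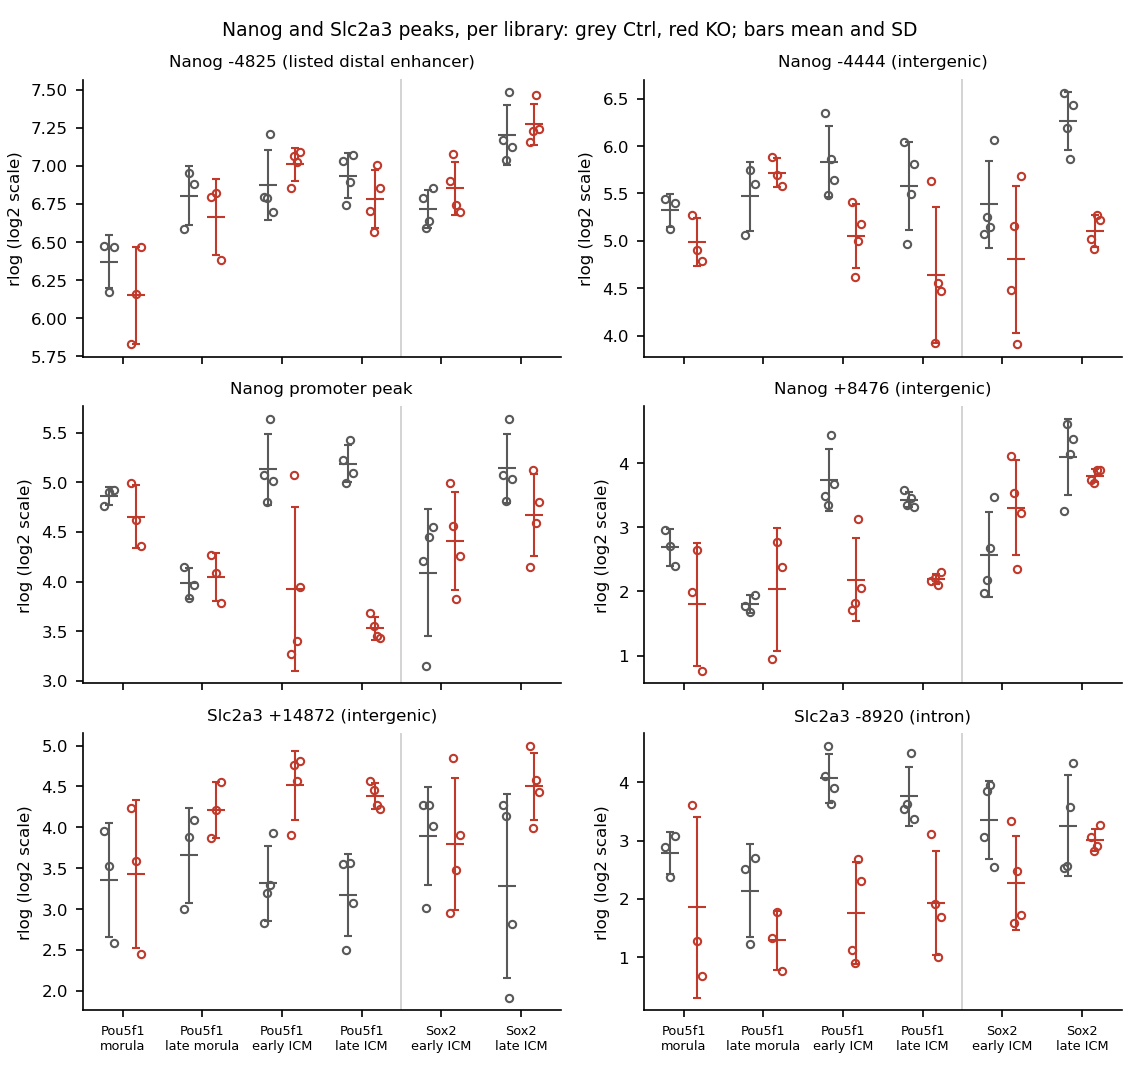
The rlog value (log2 scale, vertical axis) per library at 4 *Nanog* and 2 *Slc2a3* peaks for each line and stage (horizontal axis), with Ctrl in grey and KO in red; points are libraries and bars show mean and SD. *Nanog* −4825 stayed between 5.83 and 7.48 in all libraries, and the *Nanog* promoter peak was between 3.43 and 3.69 in *Pou5f1*-KO late ICMs against 4.99 to 5.43 in Ctrl.

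The flanks of the cluster held a decrease in an *Slc2a3* intron and increases near the end of *Slc2a3*. *Slc2a3* −8920, with the OCT word, read 3.54, 3.62, 4.51 and 3.37 in Ctrl late ICMs of the *Pou5f1* line and 3.12, 1.91, 1.00 and 1.69 in KO, a difference of −1.83 ± 0.47 (adjusted p = 0.00217). In early ICMs the difference was −2.31 ± 0.47 (adjusted p = 0.000176), and in *Sox2*-KO it was −1.08 ± 0.47 in early and −0.24 ± 0.47 in late ICMs, without a call. *Apobec1* +8835 was lower in *Pou5f1*-KO late ICMs by −1.73 ± 0.44 (adjusted p = 0.00229).

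*Slc2a3* +14872, an intergenic peak beyond the end of *Slc2a3*, was called higher in late ICMs of both knockouts. It read 3.54, 2.50, 3.56 and 3.08 in Ctrl and 4.56, 4.46, 4.27 and 4.22 in *Pou5f1*-KO (1.21 ± 0.40, adjusted p = 0.0220). In the *Sox2* line it read 4.27, 4.14, 1.91 and 2.82 in Ctrl and 5.0, 4.0, 4.58 and 4.43 in KO, with overlap (1.21 ± 0.40, adjusted p = 0.0410). The latter depended on single libraries: without Ctrl replicate 3 the difference was 0.76 (adjusted p = 0.331), and it also lost its call without KO replicate 1, 3 or 4 or Ctrl replicate 4, with quantile normalization (adjusted p = 0.0676) and without a trend in the variance (0.0771). The *Pou5f1*-KO call was lost without KO replicate 1 or Ctrl replicate 2 or 4 (adjusted p up to 0.110). In *Pou5f1*-KO early ICMs the peak was higher by 1.20 ± 0.40 (adjusted p = 0.0423), a call that 6 of the 8 omissions of a library removed (adjusted p up to 0.137), as did leaving out the trend (0.0766).

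The other increases in *Sox2*-KO late ICMs were *Slc2a3* +15355 (1.43 ± 0.41, adjusted p = 0.0139), *Slc2a3* +9952 over a coding exon (1.30 ± 0.32, adjusted p = 0.00328) and *Nanog* −32164 (1.05 ± 0.30, adjusted p = 0.0165). *Slc2a3* +9952 read 3.51, 3.07, 3.73 and 3.14 in Ctrl and 4.67, 5.06, 4.95 and 3.99 in KO, without overlap. *Nanog* −32164 lost its call without Ctrl replicate 1 (0.75, adjusted p = 0.177), with quantile normalization (0.0503) and without a trend (0.0633), and *Slc2a3* +15355 without KO replicate 1 or 3 or Ctrl replicate 2 or 3 (adjusted p up to 0.0951). In the 3 comparisons without a called increase, the largest difference above 0 was 0.94 at *Slc2a3* +9952 in *Pou5f1*-KO morulae, 1.21 at *Slc2a3* −7602 in *Pou5f1*-KO late morulae and 0.96 at *Nanog* +5806 in *Sox2*-KO early ICMs.

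The window peaks called in both knockouts were few, near the share of all peaks. In early ICMs 1 decrease, at *Dppa3* −1749, was called in both (1.15% of all peaks), which was 1 of the 8 in *Pou5f1*-KO and the 1 in *Sox2*-KO. In late ICMs 2 decreases were called in both, *Dppa3* −1749 and *Nanog* −4444 (3.43% of all peaks), of 16 and 2, and 1 increase, at *Slc2a3* +14872 (1.02%), of 1 and 4. Over all peaks, 21.2% of the decreases in *Pou5f1*-KO and 60.1% of those in *Sox2*-KO were shared in early ICMs, and 33.9% and 70.2% in late ICMs. The test of the difference between the knockouts called 1 of 55 peaks in early ICMs (0.680% of all peaks) and 2 in late ICMs (0.905%), the 3 peaks *Nanog* +8476, *Gdf3* +3164 and *Gdf3* +1470. At the other peaks called in 1 knockout alone, a difference between the knockouts was not called without the replicate block. With the block the window counts became 4 in each stage. Over all peaks the block called 1476 lower and 1287 higher in early ICMs, and 1870 lower and 1391 higher in late ICMs.

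**Figure D4:**
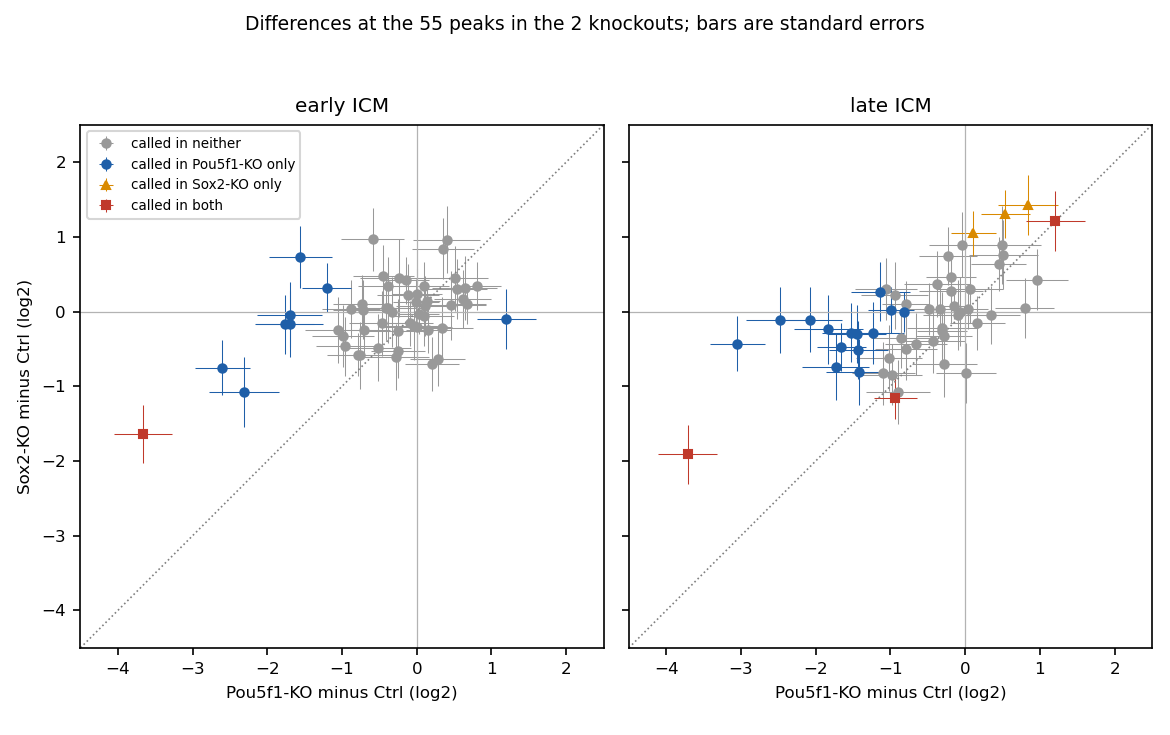
Log2 difference of *Pou5f1*-KO from Ctrl (horizontal axis) against that of *Sox2*-KO from Ctrl (vertical axis) at the 55 peaks in early ICM (left) and late ICM (right); bars are standard errors, the dotted line marks equal differences and colours mark the calls. *Dppa3* −1749 is the red square farthest to the left in each panel, at −3.66 and −1.64 in early ICM and −3.71 and −1.91 in late ICM.

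Between late morula and early ICM, *Gdf3* gained accessibility in the Ctrl embryos of the *Pou5f1* line. Only the ICMs were cultured with the MEK inhibitor and freed of trophectoderm. Stage, inhibitor, culture and tissue therefore cannot be told apart in this step, for gains or for falls. In that step 14 of 55 peaks were called higher (14.7% of all peaks were) and 2 lower (15%). The Ctrl early ICM libraries of this step are also those that the early ICM knockouts were compared with. *Gdf3* rose at 4 peaks, by 1.58 ± 0.48 at +3164, 1.87 ± 0.47 at +2170, 1.56 ± 0.40 at +1470 and 1.46 ± 0.42 at its promoter. *Dppa3* −1749 rose by 1.47 ± 0.42, the *Nanog* promoter by 1.15 ± 0.35, *Nanog* +8476 by 1.93 ± 0.45 and *Slc2a3* −8920 by 1.92 ± 0.50.

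The largest fall in this step was at *Dppa3* +27207, an intergenic peak that read 5.06, 5.04 and 4.77 in Ctrl late morulae and 2.77, 2.32, 2.94 and 2.02 in Ctrl early ICMs (−2.44 ± 0.42). In *Pou5f1*-KO the same peak read 5.24, 5.09 and 4.85 in late morulae and 2.61, 2.73, 3.37 and 3.79 in early ICMs. Between morula and late morula 1 of 55 peaks was called (6.44% of all peaks), a decrease of −2.03 ± 0.50 at *Slc2a3* −7602. Between early and late ICM, limma called 0 of 55 peaks in the *Pou5f1*-line controls (0.259% of all peaks) and 0 in the *Sox2*-line controls (0.595%). The unadjusted p was under 0.05 at 1 and 10 of the 55 peaks, against 15371 and 17663 of all 152393.

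The knockout effects did not differ detectably between stages in this window. For the *Pou5f1*-KO effect in early ICMs against late morulae limma called 0 of 55 peaks (0.346% of all peaks; 8 with an unadjusted p under 0.05), in late against early ICMs 0 (0% of all peaks; 2), and for the *Sox2*-KO effect in late against early ICMs 0 (0.0190%; 6). Over all 152393 peaks the unadjusted p was under 0.05 at 15552, 12131 and 12511 in the same order. The controls of the 2 lines differed at 0 of 55 peaks in early ICMs (0.899%), with an unadjusted p under 0.05 at 7 (19323 of all peaks). In late ICMs they differed at 1 (1.43%), *Slc2a3* −7936, which was lower in the *Sox2* line by −2.01 ± 0.45.

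**Figure D5:**
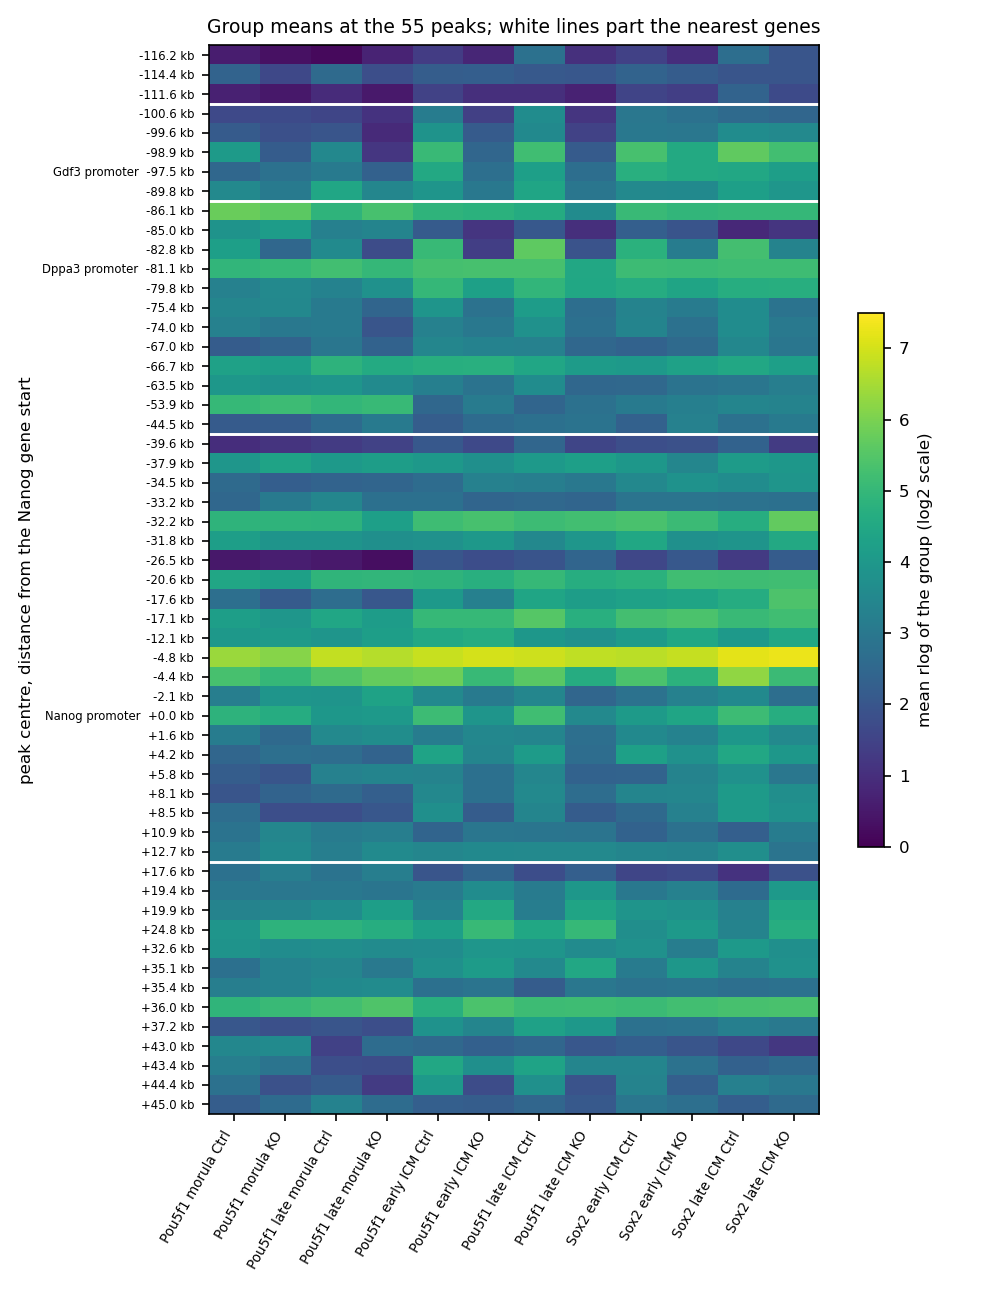
Mean rlog value (colour, log2 scale) of each of the 55 peaks (rows, by distance of the peak centre from the *Nanog* gene start in kb) in the 12 groups (columns); white lines part peaks with different nearest genes. The brightest row, just before the *Nanog* start, is *Nanog* −4825, and the rows of *Gdf3* +1470 and *Dppa3* −1749 are dark in the *Pou5f1*-KO columns.

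Peaks differed widely in how much they varied over the groups. The span between the highest and lowest group mean had a median of 1.67 over the 55 peaks, and was largest at *Gdf3* +1470 (4.46) and *Dppa3* −1749 (4.24). It was smallest at *Slc2a3* −616 (0.725), *Dppa3* +14386 (0.778) and the *Dppa3* promoter peak (0.812). The 35 peaks called in no comparison of KO with Ctrl had means from 1.20 to 6.83 and differences from −1.09 to 1.21. Among them, those nearest to the threshold in *Pou5f1*-KO late ICMs were *Nanog* +5806 (adjusted p = 0.0564), *Nanog* −17128 (0.0588) and *Dppa3* −3896 (0.0603).

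The promoter peaks were set beside other peaks by Pearson's r over the 12 group means, a description over groups of which several share a mouse line and a stage. In the window the peak most like the *Gdf3* promoter was *Nanog* +4198 (r = 0.939), the one most like the *Dppa3* promoter *Dppa3* +14071 (r = 0.633) and the one most like the *Nanog* promoter *Dppa3* +5657 (r = 0.810). Among 10498 peaks within 100 bp of a protein-coding start (10497 for the other 2 promoters), those most like the *Gdf3* promoter were at *Cc2d2a*, *Eya1* and *Glt8d2* (r = 0.964, 0.964 and 0.962). Those most like the *Dppa3* promoter were at *Grcc10*, *Pura* and *Gfra2* (r = 0.840, 0.820 and 0.818), and those most like the *Nanog* promoter at *Btn2a2*, *Defb36* and *Spats1* (r = 0.892, 0.874 and 0.817). By rank correlation these values were 0.469 to 0.874.

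Peaks within 10 kb of related genes give a frame for the window. Of 286 peaks at 22 other genes of the pluripotency network, 61 were called lower (21.3%, against 10.1% of all peaks) and 8 higher (2.8% against 8.19%) in *Pou5f1*-KO late ICMs, and 27 lower (9.44% against 4.88%) and 8 higher (2.8% against 2.71%) in *Sox2*-KO late ICMs. The genes with the most lowered peaks were *Esrrb* (15 of 36) and *Fgf4* (7 of 14) in *Pou5f1*-KO, and *Fgf4* (9 of 14) and *Utf1* (4 of 12) in *Sox2*-KO; *Esrrb* encodes a nuclear receptor of the naive network and *Fgf4* a growth factor made by epiblast. The median difference in late ICMs was −0.41 in *Pou5f1*-KO and −0.11 in *Sox2*-KO, against −0.04 and 0.01 over all peaks. In early ICMs 34 of these peaks were called lower in *Pou5f1*-KO (11.9% against 5.43% of all peaks) and 5 in *Sox2*-KO (1.75% against 1.91%). In *Pou5f1*-KO morulae and late morulae 1 each was called lower (0.35% against 0.185% and 0.539%).

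For Nodal and Gdf3 signalling, 15 of 130 peaks were called lower (11.5%, against 10.1% of all peaks) and 11 higher (8.46% against 8.19%) in *Pou5f1*-KO late ICMs, with a median of −0.21, and 4 lower (3.08% against 4.88%) and 2 higher (1.54% against 2.71%) in *Sox2*-KO late ICMs, with a median of −0.06. These shares were near or below those of all peaks. Those lower in *Pou5f1*-KO late ICMs included 4 of 7 at *Tdgf1*, which encodes the co-receptor Cripto, 2 of 4 at *Nodal* and 5 of 23 at the convertase gene *Pcsk6*. The activin receptor gene *Acvr2b* had 3 of 9 peaks called higher in the same libraries. For partners of Dppa3 in DNA methylation, 30 of 181 peaks were called lower (16.6%, against 10.1% of all peaks) and 14 higher (7.73% against 8.19%) in *Pou5f1*-KO late ICMs, with a median of −0.16. In *Sox2*-KO late ICMs 7 were called lower (3.87% against 4.88%) and 6 higher (3.31% against 2.71%), near the shares of all peaks, with a median of 0.01. In *Pou5f1*-KO late ICMs *Zfp57*, which encodes a factor that keeps imprints, had 7 of 12 peaks called lower, *Uhrf1*, whose product Dppa3 binds, had 3 of 10, and the de novo methyltransferase gene *Dnmt3a* had 0 of 29 lower and 3 higher. In early ICMs 12 and 21 peaks of these 2 lists were called lower in *Pou5f1*-KO (9.23% and 11.6%, against 5.43% of all peaks), and 1 and 2 in *Sox2*-KO (0.769% and 1.1%, against 1.91%). In *Pou5f1*-KO morulae 0 and 1 were called lower (0% and 0.552%, against 0.185%), and in late morulae 2 of each list (1.54% and 1.1%, against 0.539%).

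Among start-site peaks of marker genes, the epiblast list separated KO from Ctrl in late ICMs of both lines, while the primitive endoderm lists overlapped. *Nanog*, *Sox2* and *Pou5f1* were left out of the epiblast list, which left *Fgf4*, *Utf1* and *Tdgf1*. The mean rlog of the 2 peaks at 2 of these 3 genes was 4.86 to 5.07 per library in Ctrl and 3.36 to 3.88 in *Pou5f1*-KO late ICMs, and 4.88 to 5.32 in Ctrl and 4.01 to 4.62 in *Sox2*-KO late ICMs. That of 6 peaks at 5 of 7 trophectoderm genes was 3.94 to 4.37 in Ctrl and 4.12 to 4.46 in *Pou5f1*-KO late ICMs, and 3.85 to 4.36 in Ctrl and 4.29 to 5.06 in *Sox2*-KO late ICMs. That of 3 peaks at 3 of 6 primitive endoderm genes was 2.34 to 2.83 in Ctrl and 2.47 to 3.15 in *Pou5f1*-KO late ICMs, and 2.54 to 3.09 and 2.72 to 3.14 in the *Sox2* line. The trophectoderm ranges overlapped in both lines. In early ICMs the epiblast list was 4.84 to 5.40 in Ctrl and 3.27 to 4.56 in *Pou5f1*-KO, and 4.21 to 5.09 and 4.02 to 4.93 in the *Sox2* line, where the ranges overlapped. The 3 epiblast genes are also in the pluripotency network list, where *Fgf4* had 7 and 9 of 14 peaks lower in late ICMs of *Pou5f1*-KO and *Sox2*-KO. The list therefore cannot tell a change of cells from a change at these genes. The part of cell composition in the results above was not tested.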

How the data were processed

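ATAC-seq was measured in pooled mouse embryos or ICMs, 44 libraries in 12 groups. Reads were trimmed, aligned to mm10 with Bowtie2, cleared of duplicates with Picard, kept at a mapping quality of at least 30 and shifted for the Tn5 cut, and peaks were called with MACS2. The authors merged summits into peaks of 200 bp, counted Tn5 insertion sites with bedtools and deposited log2 rlog values from DESeq2. No counts were used here, so the depth per library is unknown and no count test was possible.

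The deposited values were fitted over all 152393 peaks with limma 3.58.1 in R 4.3.3, with 1 mean per group over all 44 libraries, moderated with a trend, and 17 contrasts were each adjusted by Benjamini-Hochberg. Calls were made at an adjusted p under 0.05. The script was tested on simulated data. Columns of samples that matched no label numbered 0.

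Named singly were the peaks of the listed *Nanog* enhancers, the promoter peaks of the 3 genes (within 500 bp of the start), peaks called in a comparison of KO with Ctrl, peaks with an OCT-SOX word, and the largest decrease and increase in each such comparison. Other peaks were named for a stage or line difference, a small span or a p near the threshold, after their values were seen. The window, lists and tests were chosen with earlier results of these data known. Sequences and gene positions came from GRCm38.p6, GENCODE and RefSeq promoter entries. Alternatives were other libraries in the fit, a filter at the median rlog, quantile normalization, no variance trend, a log2 difference of at least 1, a replicate block, each replicate left out, 2 OCT-SOX mismatches and rank correlation. Deviations of same-numbered Ctrl and KO libraries correlated above 0.1 in every pair only in *Pou5f1*-line early ICMs (0.121 to 0.162) and late morulae (0.109 to 0.192), and the numbers were taken to pair those sets from the data, not from the labels.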

Additional observations from a re-analysis of the deposited data

Results flagged for a closer look

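At 3 peaks the effect of *Pou5f1*-KO differed from that of *Sox2*-KO by the limma test of the difference itself. The difference of the effects was −2.29 at *Nanog* +8476 in early ICMs, and −2.37 at *Gdf3* +3164 and −2.62 at *Gdf3* +1470 in late ICMs.

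Single libraries stood apart from the other 3 of their group in 8 of the 192 groups of 4 libraries examined at the named peaks, where chance gives about 1 in 20. At *Dppa3* −1749 these were *Pou5f1*-KO late ICM replicate 4, high at 3.15, and Ctrl late ICM replicate 1 of the *Pou5f1* line, low at 5.35. *Gdf3* +2170 read 1.59 in *Pou5f1*-KO early ICM replicate 4 and 2.13 in *Sox2*-KO early ICM replicate 4. *Nanog* −32164 read 3.78 in *Sox2*-line Ctrl late ICM replicate 1, and *Nanog* +5806 read 2.50 in *Sox2*-KO late ICM replicate 1. *Pou5f1*-KO early ICM replicate 3 read 5.24 at *Slc2a3* +9952 and 3.49 at *Slc2a3* −7602.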

How the results depend on the processing

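Of 49 calls at named peaks, 31 held under every alternative run, and leaving out 1 library removed a call in 52 of 282 refits. The calls lost with a library left out are given with their peaks in the report. A log2 difference of at least 1 also removed *Dppa3* −4978, *Dppa3* −53 and *Nanog* −4444 in *Pou5f1*-KO late ICMs. Unknown depth and 3 or 4 pools a group limit small differences, and the causes of the changes below were not tested.

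The 8 peaks lower in *Pou5f1*-KO early ICMs were 6 to 8 with a library left out, fewest without Ctrl replicate 3, which removed the *Nanog* promoter and *Nanog* +8476, and 7 to 9 under the other settings. The 16 lower in late ICMs were 12 to 17 with a library left out, fewest without Ctrl replicate 4, which removed *Dppa3* −4978, −53, +5657 and +17546, and 13 to 20 under the other settings, with 13 at a log2 difference of at least 1 and 20 with the block. The 2 lower in *Sox2*-KO late ICMs were 2 under every alternative run.

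The other counts of the 55 peaks that changed by more than 1.5 times were these. The 1 peak lower in *Pou5f1*-KO morulae became 0 when only the libraries compared were fitted or without a variance trend, 2 with quantile normalization or the replicate block, and 0 to 2 with a library left out. The 2 lower in late morulae became 1 to 2, the 1 higher in early ICMs 0 without a trend and 0 to 1 with a library left out, and the 1 higher in late ICMs 2 with only the libraries compared or the block and 0 to 1 with a library left out. In *Sox2*-KO the 1 lower in early ICMs became 0 to 1 with a library left out, and the 4 higher in late ICMs became 2 with quantile normalization or without a trend, which removed *Nanog* −32164 and *Slc2a3* +14872, and 2 to 4 with a library left out. The 1 decrease from morula to late morula became 2 with only the libraries compared or the block, 0 at or above the median rlog and 3 with quantile normalization, and the 2 decreases to early ICM became 1 at or above the median or with the block. The 1 peak at which the knockouts differed in early ICMs became 0 with only the libraries compared, 2 at or above the median and 4 with the block, and the 2 in late ICMs 1 at or above the median and 4 with the block. Between Ctrl lines in late ICMs, 1 lower peak became 2 in these 3 settings and 0 higher became 1 with the block. OCT-SOX words fell from 4 peaks to 1 with 2 mismatches.

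The replicate block removed no call at a named peak in the comparisons of KO with Ctrl and added *Dppa3* −1749 in morulae (−1.73, adjusted p = 0.0146) and *Nanog* −4444 in *Pou5f1*-KO early ICMs. Outside the 2 sets that were paired, same-numbered libraries correlated at 0.0479 to 0.153 in morulae, 0.0174 to 0.164 in *Pou5f1*-line late ICMs, 0.0859 to 0.293 in *Sox2*-line early ICMs and −0.0248 to 0.0903 in late ICMs. By the cut at 0.1 the numbers were not taken to pair these sets. In morulae each same-numbered pair still lay above each pair of unlike numbers (−0.126 to 0.00893), so pairing there is not settled.

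Differences that changed sign were uncalled. With a library left out, the *Gdf3* promoter peak ranged from −0.35 to 0.86 in *Pou5f1*-KO morulae and −0.34 to 0.032 in *Sox2*-KO early ICMs. The *Dppa3* promoter peak ranged from −0.10 to 0.25 in morulae and −0.10 to 0.15 in early ICMs of *Pou5f1*-KO, and from −0.13 to 0.080 and −0.10 to 0.11 in early and late ICMs of *Sox2*-KO. In *Pou5f1*-KO late morulae *Nanog* −4825 ranged from −0.25 to 0.0054 and the *Nanog* promoter from −0.046 to 0.20. *Nanog* −4825 in *Sox2*-KO late ICMs was −0.060 with quantile normalization.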
